A study of Arabidopsis thaliana with 6 samples.

Results

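Transcripts of 19 cytochrome P450 genes of the CYP71B subfamily and of the glycosyltransferase gene UGT73D1 were read by 20 of the 22810 probe sets on the Affymetrix ATH1 array, which measures each Arabidopsis thaliana transcript with a set of short oligonucleotides. The members were chosen by name, as every probe set that names UGT73D1 alone, or a single gene whose symbol starts with CYP71B, in the platform annotation. UGT73D1, CYP71B23, CYP71B26 and CYP71B37 were singled out from their levels in these same 6 arrays. Their levels, differences and counts are therefore a description of the arrays, for which no p is printed, and where a member is said to pass a threshold this is no independent evidence. The current annotation gives 37 genes the symbol or synonym CYP71B, of which 19 are described here. All 20 members were matched to a locus, and CYP71B27 is annotated as a transcribed pseudogene.

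Whole plants of 3 groups were compared, with 2 arrays in each. The groups were wild type of the Wassilewskija accession (labelled WS), the octopus mutant (labelled DYG25) and a line overexpressing OCTOPUS (labelled 35SDYG25, where 35S is the usual name of a constitutive plant promoter of viral origin). All plants grew untreated on MS/2 at 20 °C and 70% hygrometry, and no allele or agent common to all groups is named in the labels. The labels give neither plant age, nor the accession of the mutant or of the overexpressor, nor the number of independent lines, nor whether replicates were separate cultures, so every error and p below reflects no more than how far these samples lay apart, possibly for technical reasons.

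Cytochrome P450 enzymes are haem proteins, most of them anchored in the endoplasmic reticulum, that oxidise small molecules with oxygen and with electrons from NADPH passed on by a P450 reductase. The CYP71B subfamily is specific to plants and in Arabidopsis has grown by tandem duplication. It includes PAD3 (CYP71B15), which acts in the synthesis of the defence compound camalexin. Glycosyltransferases of the UGT superfamily move a sugar from a UDP-sugar onto hormones, defence compounds, pigments and foreign chemicals, often after a P450 has given the molecule a group to which the sugar can be joined. No substrate is given here for most CYP71B enzymes or for UGT73D1.

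Values are log2 GCRMA levels as the authors deposited them, so a difference of 1 is a 2-fold difference. Array medians lay between 4.40 and 4.49, and the 25th percentile between 2.54 and 2.60 on 5 arrays and at 2.70 on overexpressor array 2. Readings near that percentile are called close to the floor, since background then limits any fold. The overexpressed gene OPS (OCTOPUS) stood at 2.66 and 2.47 in wild type, 2.53 and 2.47 in the mutant, and 9.52 and 9.83 in the overexpressor, so it checks the label of the overexpressor and not that of the mutant. As whole plants should, the samples held leaf and root transcripts, with 5 of 6 leaf genes (RCA, PSAN, PSAE-1, PSBY and LHCB4.2), 3 of 3 root genes (PYK10, EXPA7 and EXPA18), 1 of 3 phloem genes (SWEET11) and 0 of 2 flower genes having a named probe set. The log2 of the summed leaf level lay at 15.21 to 15.30 in wild type, 15.35 to 15.42 in the mutant and 15.11 to 15.21 in the overexpressor, and that of the root genes at 12.40 to 12.53, 12.35 to 12.47 and 11.96 to 12.13. SWEET11, a sucrose exporter of the phloem, lay at 10.54 to 10.64, 9.67 to 9.95 and 10.22 to 10.38. The root sum was close to PYK10 alone (11.93 to 12.50). EXPA7 (5.19 to 5.93) and EXPA18 (5.27 to 5.63) lay far lower. In whole plants fewer cells of a type and less RNA per cell cannot be told apart. As a sign of RNA quality, the 3′ probe set of GAPDH read above its 5′ probe set by 1.42 and 1.12 in wild type, 1.80 and 1.39 in the mutant and 1.92 and 1.72 in the overexpressor. The 25S rRNA control read 8.03 and 11.2 in the mutant and 5.86 to 6.61 on the other 4 arrays. The part of these tissue levels, RNA signs and the higher 25th percentile of overexpressor array 2 in the results below was not tested.

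Of the 20 members, 10 averaged 4 or more on the arrays and entered the limma fit, and 10 lay under this filter. A difference passed at a Benjamini-Hochberg adjusted p under 0.05 over all tested probe sets. In the overexpressor UGT73D1 and CYP71B23 were higher than in wild type, and so was CYP71B36, just under the filter. In the mutant CYP71B26 was higher and CYP71B37 lower. The remaining members differed by at most 0.57 between any groups. Against wild type 2 of the 10 members passed in the mutant, 1 higher and 1 lower, where 14% of all 12363 tested probe sets passed, 6.84% higher and 7.20% lower. In the overexpressor 2 of 10 passed against wild type, both higher, where 2.53% of all passed and 1.49% were higher. Against the mutant 3 of 10 passed, all higher, where 18.4% of all passed and 8.80% were higher. The rule for choosing the members used these contrasts, so nothing is read from the shares. The median difference of the 10 members was -0.18 in the mutant and 0.30 in the overexpressor against wild type, beside -0.01 and -0.04 over all tested probe sets. Both comparisons share the wild-type arrays.

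**Figure D1:**
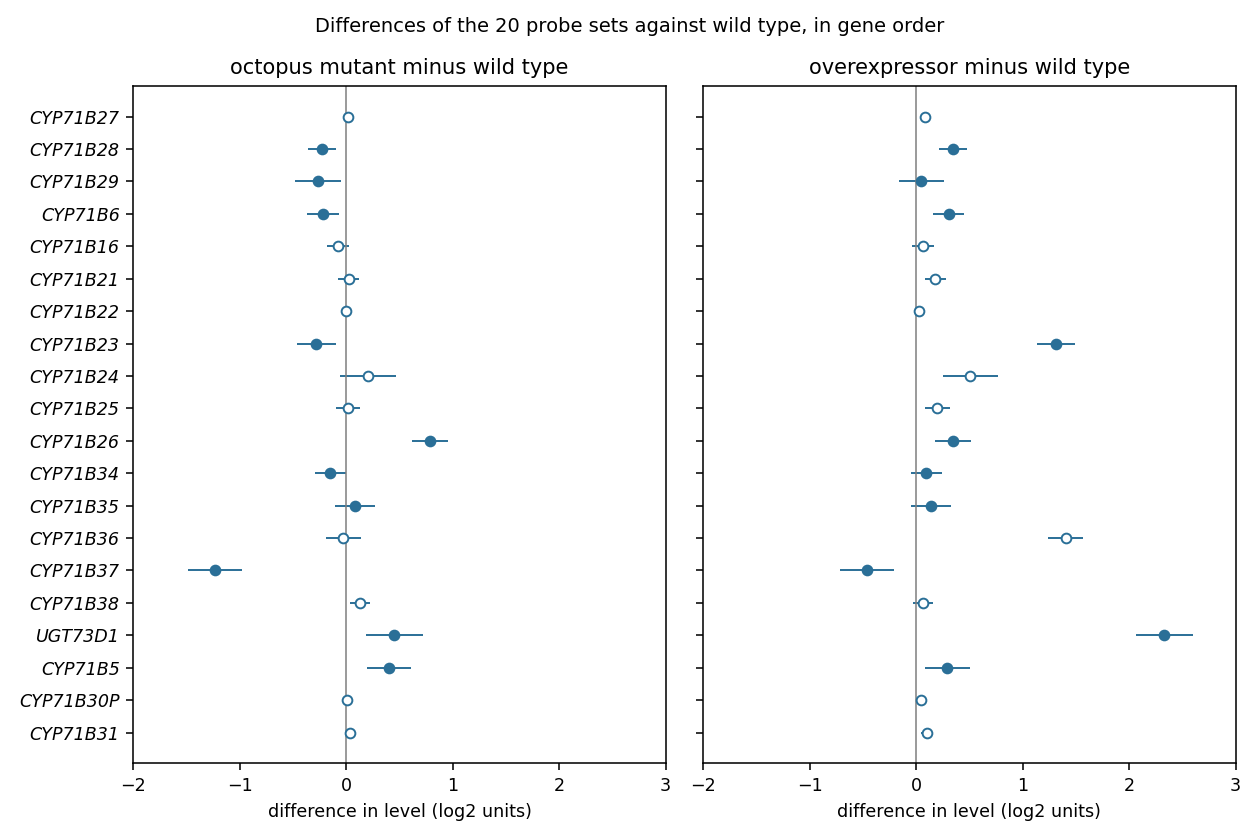
Difference from wild type in log2 units (horizontal axis) of the 20 probe sets (rows, in the order of their loci), in the octopus mutant on the left and in the overexpressor on the right. Filled circles are the 10 members with a mean of at least 4 and open circles the 10 under it, bars are the standard error of the limma fit (of the fit without a filter for open circles), and most open circles lie near 0, apart from CYP71B36 at 1.40 in the overexpressor.

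UGT73D1 (AT3G53150), of the UGT73 family, was low in wild type and in the mutant and higher in the overexpressor. It read 3.33 and 3.97 on the wild-type arrays, 4.26 and 3.94 on the mutant arrays, and 6.20 and 5.76 on the overexpressor arrays. Both overexpressor arrays lay above all 4 others, while wild type and mutant overlapped. Group means were 3.65 ± 0.45, 4.10 ± 0.23 and 5.98 ± 0.31 (SD, n = 2 each). The overexpressor was 2.33 log2 units (SE 0.267), or 5.03-fold, above wild type, and above the mutant by 1.88 (SE 0.267), or 3.68-fold. The mutant mean lay 0.45 above wild type (SE 0.267), about as much as the SD of the wild-type arrays, and it moved to 0.13 without wild-type array 1 and to 0.77 without wild-type array 2. Its mean over the 6 arrays was 4.58 and cleared the filter only through the overexpressor arrays, as the 4 others averaged under 4. Both differences of the overexpressor passed in the fit of all arrays, and also in the fit without a filter. With single arrays left out they lay between 2.01 and 2.65 against wild type and between 1.66 and 2.10 against the mutant. The pass against wild type was lost without wild-type array 1, where the difference was 2.01, and that against the mutant without mutant array 2, where it was 1.72.

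CYP71B23 (AT3G26210), a P450 of the chromosome 3 cluster, was also highest in the overexpressor. Its level was 4.79 and 4.82 in wild type, 4.36 and 4.69 in the mutant, and 6.27 and 5.97 in the overexpressor. The overexpressor arrays again lay above the other 4, and the SD was 0.21 in the overexpressor, 0.02 in wild type and 0.23 in the mutant. The mutant arrays lay just under the wild-type arrays without overlap, at a difference of -0.28 (SE 0.182) that did not pass and that was -0.12 without mutant array 1 and -0.44 without mutant array 2. The overexpressor exceeded wild type by 1.31 (SE 0.182, n = 2 per group), or 2.49-fold, and the mutant by 1.59, or 3.02-fold. The pass against the mutant held without each array in turn (1.43 to 1.76). That against wild type was lost with no filter on low values and with the replicate number as a block. A fit of only the 4 arrays compared lost it too. Against wild type the pass was lost without wild-type array 1 (1.30), wild-type array 2 (1.33), mutant array 1 or 2 (1.31 in both) or overexpressor array 2 (1.46), and kept without overexpressor array 1 (1.17).

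CYP71B36 (AT3G26320) read 3.40 and 3.58 in wild type, 3.44 and 3.48 in the mutant, and 4.84 and 4.95 in the overexpressor. Wild type and mutant overlapped, and the overexpressor lay above both. Its mean over the 6 arrays was 3.95, just under the filter, as that of CYP71B26 was just above it at 4.12, so it entered only the fit without a filter. There the overexpressor exceeded wild type by 1.40 (SE 0.164, n = 2 per group), or 2.65-fold, and the mutant by 1.44, or 2.70-fold. In that fit of 22746 probe sets 2 of the 20 members passed as higher in the overexpressor than in wild type, UGT73D1 and CYP71B36, beside 0.747% of all. Against the mutant 4 passed as higher, UGT73D1, CYP71B23, CYP71B36 and CYP71B28, beside 3.50% of all. CYP71B36 and CYP71B23 had nearly the same profile over the arrays, with a root mean square difference of 0.183 log2 units after each was centred on its mean, against 0.443 between CYP71B36 and UGT73D1 and 0.501 between CYP71B23 and UGT73D1.

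CYP71B26 (AT3G26290) was highest in the mutant. It read 3.80 and 3.69 in wild type, 4.46 and 4.61 in the mutant, and 3.98 and 4.21 in the overexpressor. No groups overlapped, and the overexpressor lay between wild type and mutant. Its mean of 4.125 over the 6 arrays cleared the filter only through the mutant arrays, as the 4 others averaged under 4. The mutant exceeded wild type by 0.79 (SE 0.169, n = 2 per group), or 1.73-fold. The overexpressor differed from wild type by 0.35 and from the mutant by -0.44 (SE 0.169 each), and neither difference passed.

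CYP71B37 (AT3G26330), the neighbour of CYP71B36 on the chromosome, was lowest in the mutant. It read 5.64 and 5.72 in wild type, 4.15 and 4.74 in the mutant, and 5.49 and 4.95 in the overexpressor. No groups overlapped, and the replicates spread more in the mutant (SD 0.42) and the overexpressor (SD 0.38) than in wild type (SD 0.06). The mutant minus wild-type difference was -1.24 (SE 0.255, n = 2 per group), or 2.35-fold lower. The overexpressor differed by -0.46 from wild type and by 0.78 from the mutant (SE 0.255 each), and neither passed. Leaving out overexpressor array 1 moved the first to -0.73 and leaving out array 2 moved it to -0.19, and the second lay between 0.48, without mutant array 1, and 1.07, without mutant array 2. The mutant calls of CYP71B26 and CYP71B37 were both lost when any wild-type or mutant array was left out. They were also lost with no filter on low values, where none of the 20 members passed in the mutant beside 4.44% of all probe sets (limma, 2 of 20 at an unadjusted p below 0.05). With single arrays left out the difference of CYP71B26 lay between 0.72 and 0.86 and that of CYP71B37 between -1.53, without mutant array 2, and -0.94, without mutant array 1.

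Among the tissue markers, 2 of 5 leaf genes and the phloem gene passed in the mutant against wild type, beside these calls of CYP71B26 and CYP71B37. Of all tested probe sets 14% passed in that comparison and 18.4% between the lines. LHCB4.2, an antenna protein of photosystem II, rose by 1.31 log2 units, or 2.48-fold (limma adjusted p = 0.0254). PSBY, a photosystem II subunit, rose by 0.36 (limma adjusted p = 0.0378). RCA, PSAN and PSAE-1 differed by 0.185, -0.15 and -0.04 without passing. SWEET11 fell by 0.78 (limma adjusted p = 0.0102). The call of LHCB4.2 was lost without either mutant array (0.83 to 1.79 over the arrays left out), that of PSBY without any wild-type or mutant array, and that of SWEET11 without wild-type array 2 or mutant array 1. Between the lines LHCB4.2 at -1.21, PYK10 at -0.38 and SWEET11 at 0.49 passed for the overexpressor minus mutant difference (limma adjusted p = 0.0281, 0.0395 and 0.0358), and each call was lost without either mutant array, that of SWEET11 without any array. Of the root genes, EXPA7 at -0.125 and EXPA18 at 0.15 did not pass between the lines. In the overexpressor against wild type the lowest limma adjusted p among the markers was 0.0805, for PYK10. The part of these transcripts in the results on the members was not tested.

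**Figure D2:**
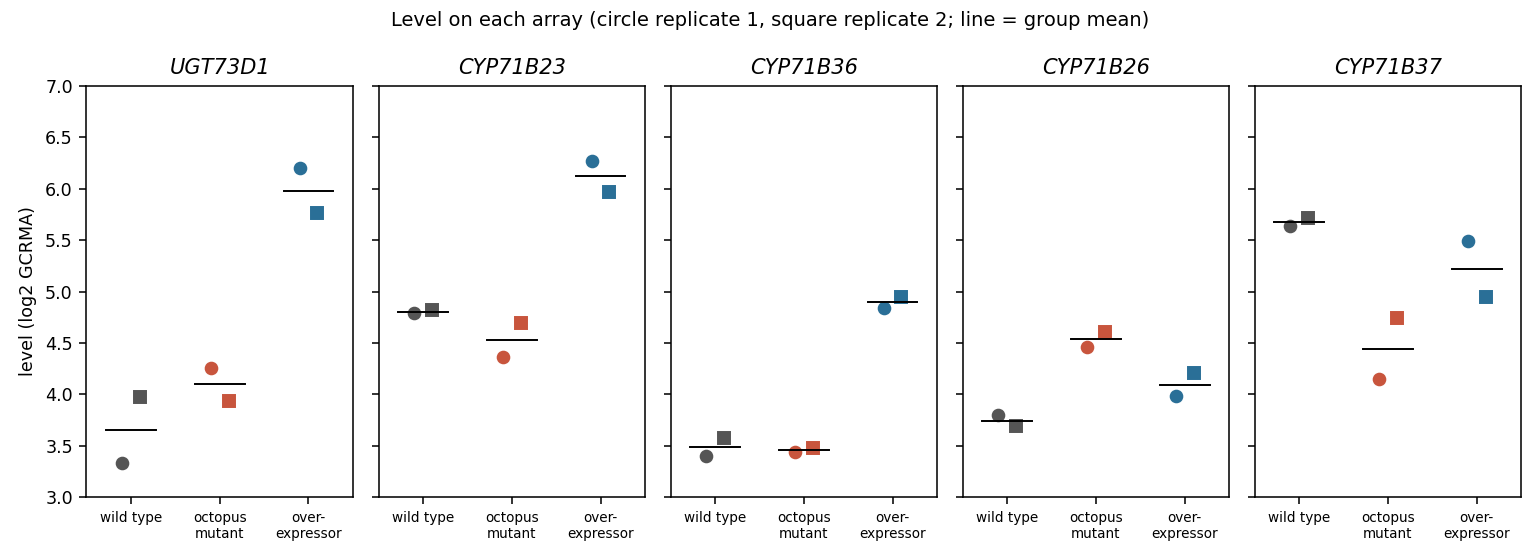
Level (vertical axis, log2 GCRMA) of 5 members on each of the 6 arrays, by group (horizontal axis), where circles are replicate 1, squares replicate 2 and lines group means. UGT73D1, CYP71B23 and CYP71B36 stand highest on both overexpressor arrays, CYP71B26 on both mutant arrays, and CYP71B37 lowest on both mutant arrays.

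A smaller pattern was common to CYP71B28 and CYP71B6. CYP71B28 (AT1G13090) read 6.99 and 6.85 in wild type, 6.80 and 6.59 in the mutant, and 7.30 and 7.23 in the overexpressor. CYP71B6 (AT2G24180), an enzyme that turns indole-3-acetonitrile towards indole-3-carboxylic acid derivatives, read 7.50 and 7.19, 7.15 and 7.10, and 7.76 and 7.54. In both genes the mutant was lowest and the overexpressor highest, with no overlap between groups. The overexpressor exceeded the mutant by 0.57 for CYP71B28 (SE 0.133, n = 2 per group), which passed, and by 0.52 for CYP71B6 (SE 0.149), which did not. That pass was lost without any one of the mutant or overexpressor arrays, where the difference lay between 0.46 and 0.68. CYP71B6 passed too with quantile normalization added, where 4 of 10 members did beside 19.2% of all, and with the filter raised to a mean of 6, where 2 of 3 members did beside 25.5%.

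CYP71B5 (AT3G53280) read 6.53 and 6.59 in wild type, 6.91 and 7.02 in the mutant, and 7.17 and 6.54 in the overexpressor. Its mutant arrays lay above wild type by 0.41 (SE 0.207), and its overexpressor arrays spanned both groups. CYP71B29 (AT1G13100) read 5.14 and 4.90 in wild type, 4.74 and 4.77 in the mutant, and 5.35 and 4.79 in the overexpressor, whose arrays overlapped with wild type. CYP71B34 (AT3G26300) and CYP71B35 (AT3G26310) were the flattest of the 10, with ranges of 0.30 and 0.44 over the 6 arrays. CYP71B34 lay between 5.83 and 6.13 and CYP71B35 between 4.22 and 4.66. None of these 4 genes passed in any comparison. CYP71B35 is among the probe sets that the table prints to more than 2 decimals, and its mutant arrays, at 4.520 and 4.518, lay closer together than those of any other tested member.

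Below the filter, besides CYP71B36, were CYP71B16, CYP71B21, CYP71B22, CYP71B24, CYP71B25, CYP71B27, CYP71B30P, CYP71B31 and CYP71B38, none of which reached 4 on any array. CYP71B24 (AT3G26230) varied most among them, at 2.71 and 2.71 in wild type, 3.13 and 2.70 in the mutant, and 2.85 and 3.59 in the overexpressor. Its overexpressor arrays lay above wild type, but further apart from each other than any group means. The others stayed close to the floor, CYP71B27 and CYP71B22 between 2.25 and 2.39, and CYP71B38 between 2.61 and 2.88. On overexpressor array 2 the median of the 10 members under the filter was 2.72, against 2.40 to 2.46 on the other 5 arrays, a shift in the same direction as the 25th percentile of all probe sets.

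Counting every member, 13 of 20 lay higher in the overexpressor than in wild type without overlap of the arrays, beside 39.5% of all 22746 probe sets, and 1 lay lower, beside 18.5%. Of the 13, 8 were under the filter and include readings close to the floor. In the mutant 2 of 20 lay above wild type without overlap, beside 23.8%, and 5 lay below, beside 20.5%. Between the lines 9 of 20 were higher in the overexpressor, beside 22.8%, and 1 was lower, CYP71B26, beside 21.7%. These shares too come from the contrasts that chose the members.

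Neighbouring genes of the subfamily read differently. In the order of genes on chromosome 3, a stretch of 25 genes from CYP71B16 to CYP71B37 holds 18 genes named CYP71B, of which 11 were measured by a probe set of their own. CYP71B23 lay next to CYP71B22, which was close to the floor in all groups (2.25 to 2.35). At the far end CYP71B34, CYP71B35, CYP71B36 and CYP71B37 followed one another, and the 4 neighbours had 3 patterns: CYP71B34 and CYP71B35 hardly moved, CYP71B36 was high in the overexpressor, and CYP71B37 was low in the mutant. Away from this stretch, CYP71B5 was read well above the floor beside its neighbour CYP71B30P, which lay between 2.32 and 2.42. One more probe set lists 2 CYP71B genes and therefore names neither of them. It read 7.53 and 7.09 in wild type, 6.85 and 6.85 in the mutant, and 8.34 and 8.41 in the overexpressor. The overexpressor lay above and the mutant below wild type on every array. The overexpressor exceeded wild type by 1.065 and the mutant by 1.525 (SE 0.160 each), and both differences passed. That of the mutant from wild type, -0.46, did not. Members of such a family have similar sequences, and how far a probe set also reads a neighbour's transcript was not tested.

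**Figure D3:**
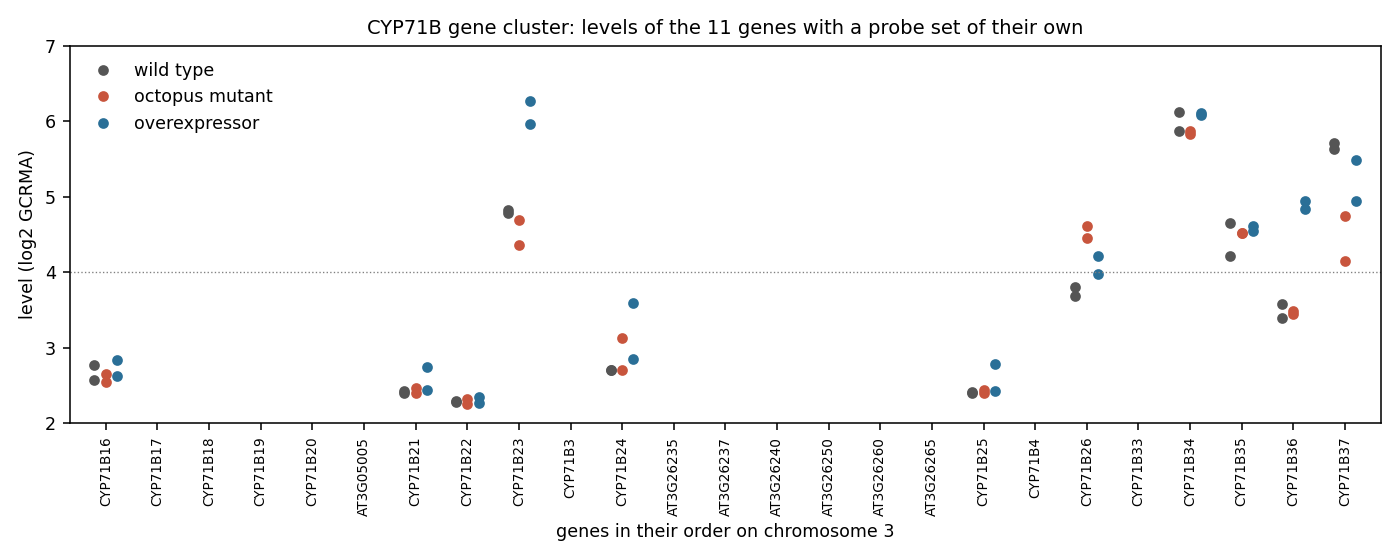
Level (vertical axis, log2 GCRMA) on each array of the 11 members in the chromosome 3 stretch, placed by gene order (horizontal axis, 25 genes), with wild type in grey, mutant in red and overexpressor in blue, and the filter of 4 as a dotted line. Genes without points have no probe set of their own here, and CYP71B22 stays between 2.25 and 2.35 beside CYP71B23, whose overexpressor arrays stand apart.

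UGT73D1 was set beside 50 probe sets naming 1 other gene with a UGT symbol or synonym, of which 27 entered the fit. UGT genes without such a probe set are not covered. Against wild type none of the 27 passed in the overexpressor (limma, 5 at an unadjusted p below 0.05), with differences from -0.68 to 0.76 and a median of -0.005. UGT73D1, at 2.33, lay above that range, but it was singled out from its levels on these arrays. Under the filter UGT76D1 (0.93) and UGT76E2 (0.845) also lay above the range and UGT72B3 (-0.73) below it. None of the 50 passed in the fit without a filter. In the mutant 2 rose and 3 fell against wild type, with a median of -0.09, and between the lines 4 were higher and 3 lower in the overexpressor, with a median of 0.10. The shares of all tested probe sets were those given above. Of the 6 other UGT73 genes named in this way 2 were tested.

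UGT73B1, whose family includes glucosyltransferases of flavonoids, read 6.31 and 6.34 in wild type, 5.27 and 5.24 in the mutant, and 6.60 and 6.58 in the overexpressor. It fell in the mutant by 1.07 log2 units (SE 0.125, limma adjusted p = 0.00442), and the overexpressor exceeded the mutant by 1.34 (adjusted p = 0.00164). The first call was lost without mutant array 1 (limma adjusted p = 0.0527), and the second held without each array. UGT73B5 did not pass in any comparison, at 4.86 and 4.65 in wild type, 4.26 and 4.19 in the mutant, and 3.95 to 4.2 in the overexpressor. UGT73C7, the next coding gene after UGT73D1 on the chromosome, was close to the floor on 5 arrays, at 2.57 to 2.69, and read 3.01 on overexpressor array 2.

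Among UGT genes of other families, UGT88A1 rose in the mutant by 1.16 (SE 0.193, limma adjusted p = 0.0120) with the overexpressor at -0.73 from the mutant (adjusted p = 0.0414). UGT72E1, of a family that glucosylates phenylpropanoids of lignin synthesis, rose in the mutant by 0.80 (SE 0.189, limma adjusted p = 0.0359). UGT80B1, a sterol glucosyltransferase, fell in the mutant by 0.53 (SE 0.136, limma adjusted p = 0.0466) and was higher by 0.63 in the overexpressor than in the mutant (adjusted p = 0.0233). UGT78D1, a flavonol rhamnosyltransferase, stood in the overexpressor at -1.75 from the mutant (SE 0.331, limma adjusted p = 0.0152), and its mutant stood 1.08 above wild type without passing (adjusted p = 0.0752). Each of these calls was lost without mutant array 2, with limma adjusted p values between 0.0992 and 0.215 at their highest over the arrays left out, and each except that of UGT78D1 also without mutant array 1.

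**Figure D4:**
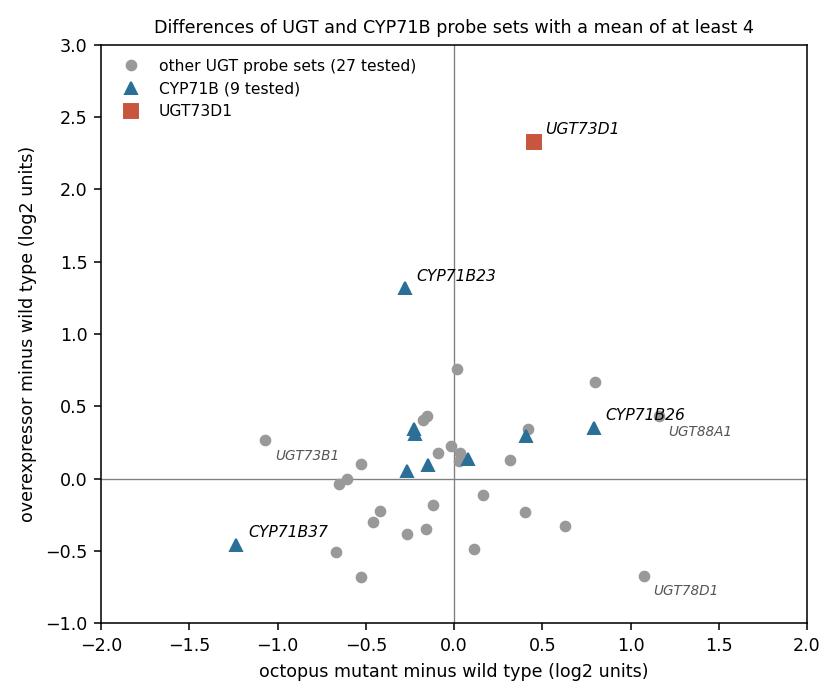
Difference of the octopus mutant from wild type (horizontal axis) against that of the overexpressor from wild type (vertical axis), both in log2 units, for the 27 other UGT probe sets (grey circles), 9 CYP71B probe sets (blue triangles) and UGT73D1 (red square) with a mean of at least 4. The comparisons share the wild-type arrays; UGT73D1 at 2.33 and CYP71B23 at 1.31 stand above the other points on the vertical axis.

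Among probe sets naming 1 gene with a CYP symbol or synonym, no P450 outside the subfamily entered the main fit. The 8794 probe sets not listed in the annotation were not searched for P450 genes. Of the camalexin and indole pathway list of 14 genes, CYP71B6 alone had a named probe set, and of the 3 electron donors of P450 enzymes none did. Symbols starting with CYP also name cyclophilins, and the 4 tested probe sets of the lists of other CYP symbols (CYP71, CYP59, SQN and AT4G33060, also called CYP57) are cyclophilins and not P450s. Among them SQN fell in the overexpressor by 1.24 (SE 0.197, limma adjusted p = 0.0294). Leaving out any array other than wild-type array 2 ended that call (limma, highest adjusted p = 0.147), as did the fit without a filter. Against the mutant SQN also stood lower in the overexpressor, at -1.14 (limma adjusted p = 0.0116), a call that ended without either mutant array. Its second probe set lay close to the floor in all groups. CYP71, CYP59 and AT4G33060 did not pass in any comparison. The P450 genes CYP84A4, CYP79A2, CYP78A9, CYP51G2 and CYP718 lay under the filter. CYP718, of another P450 family, read 3.92 and 3.71 in wild type, 2.21 and 2.28 in the mutant, and 4.29 and 4.03 in the overexpressor. The mutant lay at the floor and below all 4 other arrays. CYP718, named after its values were seen, alone of these genes passed in the fit without a filter. In that fit 4.44% of all probe sets passed in the mutant against wild type and 6.73% between the lines. There the mutant differed from wild type by -1.57 (limma adjusted p = 0.0105), and the overexpressor exceeded the mutant by 1.915 (limma adjusted p = 0.0043). Its overexpressor difference from wild type, 0.345, did not pass.

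The transcripts whose profiles were nearest to each singled-out member were sought among 1267 or 1268 candidates, the probe sets that name 1 gene, were tested and have a range of at least 1. Likeness was the root mean square difference over the 6 arrays after centring. For UGT73D1 the nearest were AT5G59680 (0.168), AT1G51890 (0.243) and AT2G43620 (0.260), beside a median of 1.19 over the candidates. AT5G59680 read 3.96 and 4.37 in wild type, 4.96 and 4.77 in the mutant, and 6.56 and 6.24 in the overexpressor. For CYP71B23 they were AT2G18690 (0.152), AT5G25440 (0.158) and AT5G43910 (0.167), beside a median of 0.883, all with the overexpressor highest and the mutant lowest. For CYP71B26 they were QKY, which encodes a membrane protein of organ development (0.101), AT1G08580 (0.121) and AT1G66940 (0.124), beside a median of 0.607. For CYP71B37 they were AT2G47890 (0.0957), the gibberellin receptor gene GID1A (0.0977) and AT1G03740 (0.105), beside a median of 0.714. GID1A read 7.14 and 7.24 in wild type, 5.78 and 6.14 in the mutant, and 6.81 and 6.39 in the overexpressor, in the same order on every array pair as CYP71B37.

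**Figure D5:**
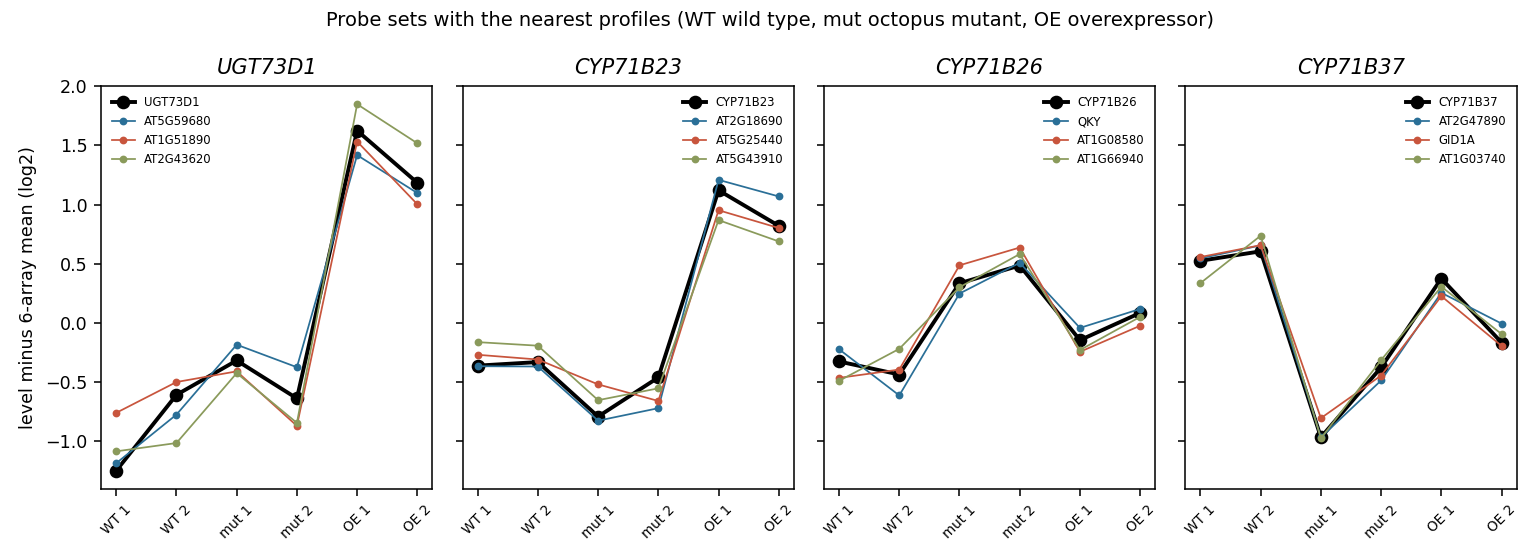
Level minus the 6-array mean (vertical axis, log2 units) on each array (horizontal axis) of UGT73D1, CYP71B23, CYP71B26 and CYP71B37 (black) and of the 3 probe sets nearest to each (coloured). The coloured lines follow the black ones because they were picked for that, at root mean square differences of 0.0957 to 0.260.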

How the data were processed

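Biotin-labelled RNA of whole plants was read on 6 ATH1 arrays. The values are log2 expression levels as deposited by the authors, 1 per probe set and array, from GCRMA (per the submitters' processing notes; version not stated), a method that models background from probe sequence, normalises and summarises. The log2 scale was inferred from the range, 1.82 to 14.3, and the set of arrays normalised jointly is unknown here. The number of arrays limits the precision.

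Names came from the platform annotation (13513 probe sets with 1 gene, 503 with several, 8794 not listed), and loci and gene order from TAIR10.1 (13436 matched by gene number). Coordinates are not printed, since the array's build is not given. All 6 arrays entered 1 two-sided fit in limma 3.58.1 (R 4.3.3; lmFit and eBayes, trend on; 3 residual and 3.98 prior degrees of freedom). Leaving out the 64 controls, the 12363 averaging 4 or more were tested. The threshold was an adjusted p (Benjamini-Hochberg) under 0.05. The fit was tested on simulated data. Alternatives changed the filter, scaling, trend, arrays and replicate block. Named are all members, OPS, the 3 nearest profiles of 4 members, and up to 4 tested genes of smallest p per list. CYP718, UGT73C7, the under-filter P450 genes and the probe set of 2 CYP71B genes were added after their values were seen. Members and lists were chosen with earlier results of these data known.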

Additional observations from a re-analysis of the deposited data

How the results depend on the processing

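Direction was the same for each of the 7 member differences that passed under all alternatives in which they were tested. Most of this was fixed in advance. Changing the filter, the trend or the block, or fitting only the 4 arrays compared, left each difference as it was. Groups without overlap also keep their sign when 1 array is left out. Only the added scaling could have changed a direction. Counts of passing members moved, and the share of all tested probe sets that passed moved with the setting, so it stands beside each count. In the mutant against wild type 2 of 10 members passed, beside 14% of all. None of 20 passed without a filter (2 at an unadjusted p below 0.05; 4.44% of all), none of 3 with a mean of at least 6 (0 at an unadjusted p below 0.05; 20.8%) and none of 10 with the replicate number as a block (2 at an unadjusted p below 0.05; 9.43%), and 0 to 2 passed with single arrays left out (1.35% to 14.6%). In the overexpressor against wild type 2 of 10 passed, beside 2.53%. It was 0 of 3 with a mean of at least 6 (1 at an unadjusted p below 0.05; 2.66%), 1 in a fit of the 4 arrays compared (0.607%), 1 with the replicate block (0.954%) and 0 to 2 with single arrays left out (0.461% to 3.02%). In the overexpressor against the mutant 3 of 10 passed, beside 18.4%, 3 with the replicate block (12.8%) and 1 to 3 with single arrays left out (2.94% to 15.6%). Whether the replicate numbers pair the samples is not given in the labels. Deviations from the group means correlated at -0.24 (wild type and mutant), 0.16 (wild type and overexpressor) and -0.31 (mutant and overexpressor). These mixed signs do not decide it. With the mutant numbers exchanged in the block, chosen after seeing the data, 2, 2 and 5 members passed in the same order of comparisons, where the shares of all rose to 18.9%, 6.24% and 24%. Fits that leave out an array keep 1 array in a group, whose spread is taken to be that of the others.

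Of the 27 other UGT probe sets 5 passed in the mutant, 2 with the replicate block and 0 to 5 with single arrays left out. Without a filter 3 of 50 passed, of which 2 are among the 27 and 1, UF3GT, lies under the filter. Between the lines 7 of the 27 passed, 3 with the block and 1 to 6 with single arrays left out, and without a filter 4 of 50, of which 3 are among the 27 and UF3GT is again the other. Without a filter 4.44% of all probe sets passed in the mutant against wild type and 6.73% between the lines. With the mutant numbers exchanged 1 passed in the overexpressor against wild type and 11 between the lines, beside the risen shares above. The fall of SQN and the mutant calls of UGT72E1 and UGT80B1, and that of UGT88A1 between the lines, were also lost with the block. Causes were not tested. With 2 arrays per group, floor-level readings and replicates of unknown origin limit every value.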
